A study of Mus musculus with 12 samples.

Results

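The genes described are 8 that encode laminin chains and the integrin subunits of the hemidesmosome. They are the laminin alpha chain genes Lama3 and Lama5, the beta chain genes Lamb1, Lamb2 and Lamb3, the gamma chain gene Lamc1, and the integrin subunit genes Itga6 and Itgb4. Each was found by its symbol in a table of read counts for 55137 gene identifiers, all 8 were present once, and all 8 were among the 15267 genes left after the filter on low counts. They were chosen by name with the fold changes and adjusted p-values of these same comparisons in view, and which value decided each choice is not recorded. Their values below are therefore a description and not independent evidence of a response.

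The cells were CMT-93, an epithelial line from the mouse rectum, in 4 groups of 3 libraries. The control group had the vehicle alone. The PTSO group had PTSO, an organosulfur compound of Allium plants, at 20 µM. The T. muris group had antigens of Trichuris muris, the mouse whipworm, at 100 µg/mL after the vehicle, and the PTSO + T. muris group had the same antigens 30 minutes after PTSO. All cells were harvested at 6 hours. The series title names LPS where the sample labels name T. muris, and the groups follow the labels. Nothing in the labels ties the libraries of a group to separate cultures, so the p-values measure the spread between these libraries, which may be technical.

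Laminins are trimers of an alpha, a beta and a gamma chain that assemble inside the cell and are secreted to form the basement membrane, the sheet of matrix under an epithelium. Laminin-332 holds the products of Lama3 and Lamb3, is the laminin of epithelial anchorage, and is bound by integrin alpha 6 beta 4 at the hemidesmosome, where plectin ties the integrin to keratin filaments. Laminin-511 and laminin-521 join the alpha 5 chain with the beta 1 or the beta 2 chain and the gamma 1 chain, and are the main laminins under the mature intestinal epithelium.

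Total counts per library were 16684143 to 34506754. On the first principal component of all genes, with 19.6% of the variance, control libraries 2 and 3 lay at -35.4 and -41.5, while control library 1 lay at -3.58 and the 9 treated libraries between 0.929 and 23.0. By a chi-square per degree of freedom between 2 libraries, control libraries 2 and 3 differed by 7.84. Control library 1 differed from them by 16.4 and 25.5, where pairs within treated groups ran from 4.14 to 8.25. Which control libraries are typical cannot be told from 3. Results against control are therefore also given without control libraries 2 and 3, and without control library 1. The 10 epithelial markers examined were all expressed, with a summed level of 8318 to 8992 CPM over the 12 libraries, where CPM are read counts scaled to the size of the library. The 7 fibroblast markers summed to 2.3 to 4.64 CPM, with Col3a1, Dcn and Lum at 0, the 6 endothelial markers to 2.6 to 4.99 CPM and the 8 leukocyte markers to 0.23 to 1.12 CPM, with Tyrobp at 0. In bulk RNA, a change in RNA per cell and a change in which cells were present cannot be told apart.

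Divided by exon length, the 8 genes spanned a wide range of levels, and their order was the same in each of the 4 groups. In control libraries Lama5 was highest, at 148 ± 16.8 CPM per kb of annotated exon (SD, n = 3). Next came Lamb2 at 41.8 ± 2.31, Lamb3 at 20.8 ± 2.37, Lama3 at 13.4 ± 0.304 and Itgb4 at 10.5 ± 0.824 CPM per kb. Lamc1 followed at 7.54 ± 0.634, Itga6 at 3.74 ± 0.0903 and Lamb1 at 0.771 ± 0.134 CPM per kb. No library of one gene overlapped those of the next gene in this order. These levels depend on the length chosen. By the longest transcript instead of all exons, 6 of the 8 control means moved by their SD or more. Lamb3 was then at 28.3 ± 3.22 and Lamb1 at 1.32 ± 0.23 CPM per kb in control. The position of Itga6 depends on it too. In control Itga6 was then at 7.82 ± 0.189 and Lamc1 at 8.19 ± 0.688 CPM per kb. With both treatments Itga6 was the higher, at 8.59 ± 0.303 against 6.63 ± 0.162. Ratios between genes below use all exons and also depend on this choice.

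**Figure D1:**
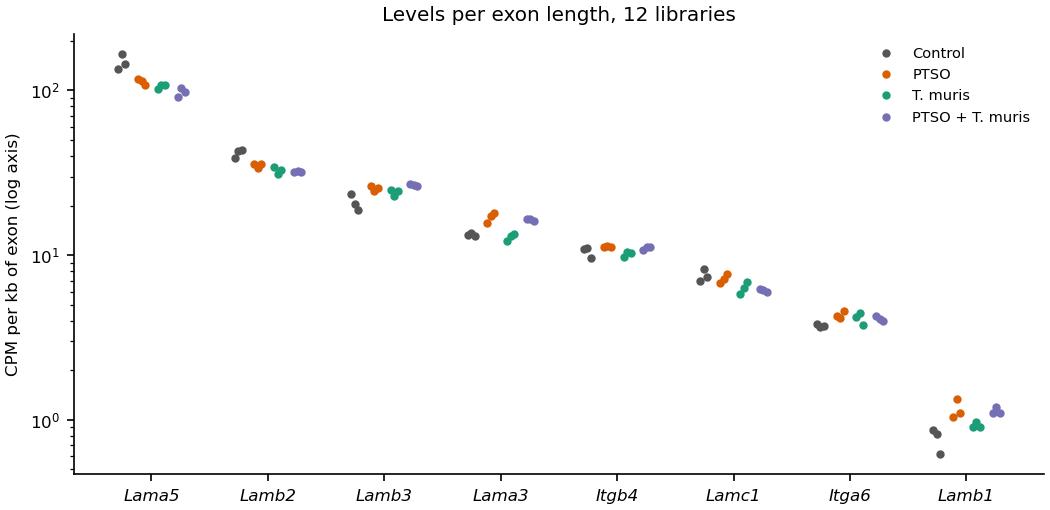
Level of each gene in each library, in CPM per kb of annotated exon on a log axis, with the genes ordered by their control mean and the libraries coloured by group. Lama5 lies above the rest in every library and Lamb1 below the rest.

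The chains of one trimer were not at like levels. The Lama5 level per kb was 19.6 ± 0.568 times that of Lamc1 in control libraries, the gamma chain it is known to pair with. Within laminin-332, Lama3 was at 0.646 ± 0.0686 times Lamb3. Of the beta chains known to pair with alpha 5, Lamb1 was at 0.0186 ± 0.00403 times Lamb2. Other alpha chains were near 0, with 7 counts for Lama1, 12 for Lama2 and 1 for Lama4 over all 12 libraries together.

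PTSO against control gives the compound without antigens. The laminin-332 genes Lama3 and Lamb3 and the beta 1 gene Lamb1 rose, the alpha 5 gene Lama5 and the beta 2 gene Lamb2 fell, and Lamc1, Itga6 and Itgb4 did not pass the test. Called here means an adjusted p below 0.05 in edgeR's quasi-likelihood test over all genes. That is 3 of 8 called higher and 2 of 8 called lower, where 2.36% of all genes tested were called higher and 2.9% lower. Since the genes were picked with this comparison known, nothing is read from that difference. The background itself moved with single libraries: 802 genes were called in all, 3637 without control library 1, 165 without control library 2 and 46 in a fit of the 6 compared libraries alone. The median log2 fold change of the 8 genes was 0.16, against 0.0016 over all genes.

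Lama3 was at 143, 147 and 141 CPM in control libraries 1, 2 and 3, and at 169, 185 and 194 CPM in the PTSO libraries. Every PTSO library was above every control library. The log2 fold change was 0.35 ± 0.05 (SE), a 1.27-fold rise, with adjusted p = 0.00125. Lama3 encodes the alpha 3 chain, whose end binds the integrins, and its call held whichever library was left out (adjusted p up to 0.0161). Leaving out control library 1 gave 0.34 ± 0.05 with adjusted p = 1.25e-05. Without control libraries 2 and 3 together the value was 0.35 ± 0.07 and adjusted p = 0.00403, and over all 19 alternatives tried adjusted p ran from 6.68e-08 to 0.049.

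Lamb3, the beta chain of the same trimer, was at 155, 134 and 124 CPM in control and at 173, 161 and 169 CPM with PTSO. The groups did not overlap, but control library 1 lay close to PTSO library 2. It rose by 0.28 ± 0.06 on the log2 scale with adjusted p = 0.0137. Leaving out control library 1 gave 0.37 ± 0.05 with adjusted p = 1.98e-06. The value was 0.11 ± 0.06 with adjusted p = 0.705 without control libraries 2 and 3 (1.98e-06 to 0.705 over the alternatives). The call was also lost without control library 2, control library 3, PTSO library 1 or PTSO library 3 alone (adjusted p up to 0.0909).

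Lamb1 was the gene of lowest level among the 8, with 160 to 218 counts per control library. It was at 8.65, 8.15 and 6.14 CPM in control and at 10.4, 13.3 and 11 CPM with PTSO. The groups did not overlap, and control library 3 and PTSO library 2 were the extremes. Its rise was 0.60 ± 0.14 on the log2 scale with adjusted p = 0.0184, and 0.69 ± 0.15 with adjusted p = 9.97e-04 without control library 1. The call was lost without control library 2, control library 3, PTSO library 2 or PTSO library 3 (adjusted p up to 0.138), and without control libraries 2 and 3 together the value was 0.42 ± 0.18 with adjusted p = 0.561 (9.97e-04 to 0.561 over the alternatives).

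Lama5 moved the other way. It was at 1528, 1901 and 1639 CPM in control and at 1329, 1299 and 1236 CPM with PTSO. All PTSO libraries were below all control libraries, and control library 2 was the highest. The log2 fold change was -0.39 ± 0.07 with adjusted p = 0.00421, and the call held whichever library was left out (adjusted p up to 0.0306). Leaving out control library 1 gave -0.46 ± 0.06 with adjusted p = 1.61e-04. With control library 1 as the only control it was -0.25 ± 0.05 with adjusted p = 0.0312, so the size of the fall was over 1.5 times smaller there. In a fit of the 6 compared libraries alone adjusted p was 0.0638, and the alternatives ran from 3.53e-14 to that value.

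Lamb2, the beta 2 chain, was at 238, 261 and 263 CPM in control and at 216, 207 and 218 CPM with PTSO, with no overlap. Its log2 value was -0.25 ± 0.05 with adjusted p = 0.00733, and -0.30 ± 0.05 with adjusted p = 1.01e-05 without control library 1. The call was lost without PTSO library 2 (adjusted p = 0.0563). With control library 1 as the only control the value was -0.16 ± 0.06 with adjusted p = 0.391, over 1.5 times smaller (1.01e-05 to 0.391 over the alternatives).

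**Figure D2:**
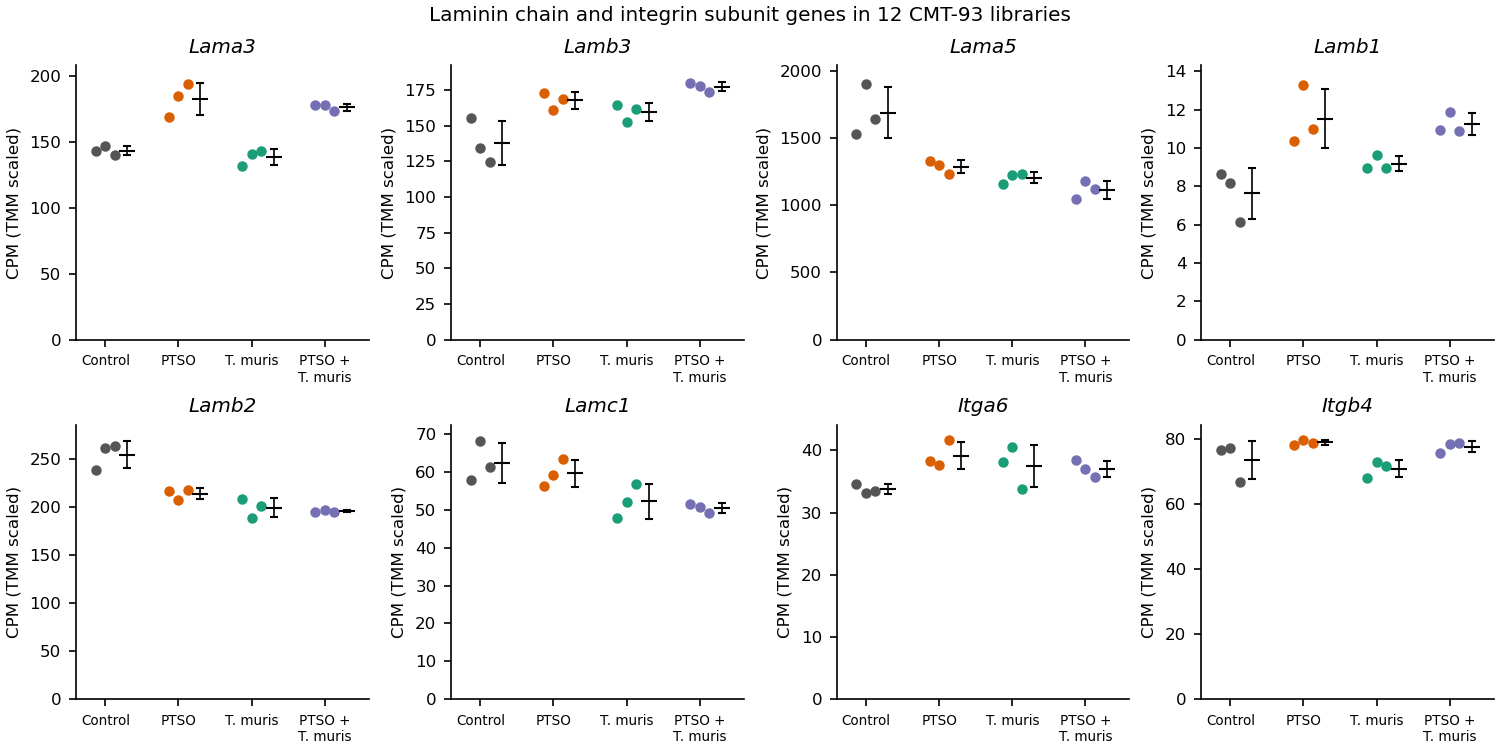
CPM in each of the 12 libraries, 1 panel per gene, with points for libraries and bars for the mean ± SD of 3 libraries. Lama3 is high in both groups that had PTSO, while Lama5 is lower in all 3 treated groups than in control.

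Of the genes that were not called with PTSO, Lamc1, the gamma 1 chain, was at 57.8 to 68.1 CPM in control and at 56.3 to 63.5 CPM with PTSO, with overlapping groups and a log2 value of -0.07 ± 0.07. Itga6, the alpha 6 integrin subunit that pairs with beta 4 or beta 1, was at 33.1 to 34.6 CPM in control and 37.6 to 41.6 CPM with PTSO. These groups did not overlap, and its value of 0.22 ± 0.08 had adjusted p = 0.0976. Without control library 1 the value was 0.23 ± 0.08 and was called, with adjusted p = 0.0424. Itgb4, the beta 4 subunit whose long tail binds plectin, was at 67.0 to 77.2 and 78.4 to 79.9 CPM, a value of 0.10 ± 0.06 with adjusted p = 0.304. In all, 7 of the 8 genes had groups that did not overlap, against 20.6% of the genes tested.

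**Figure D3:**
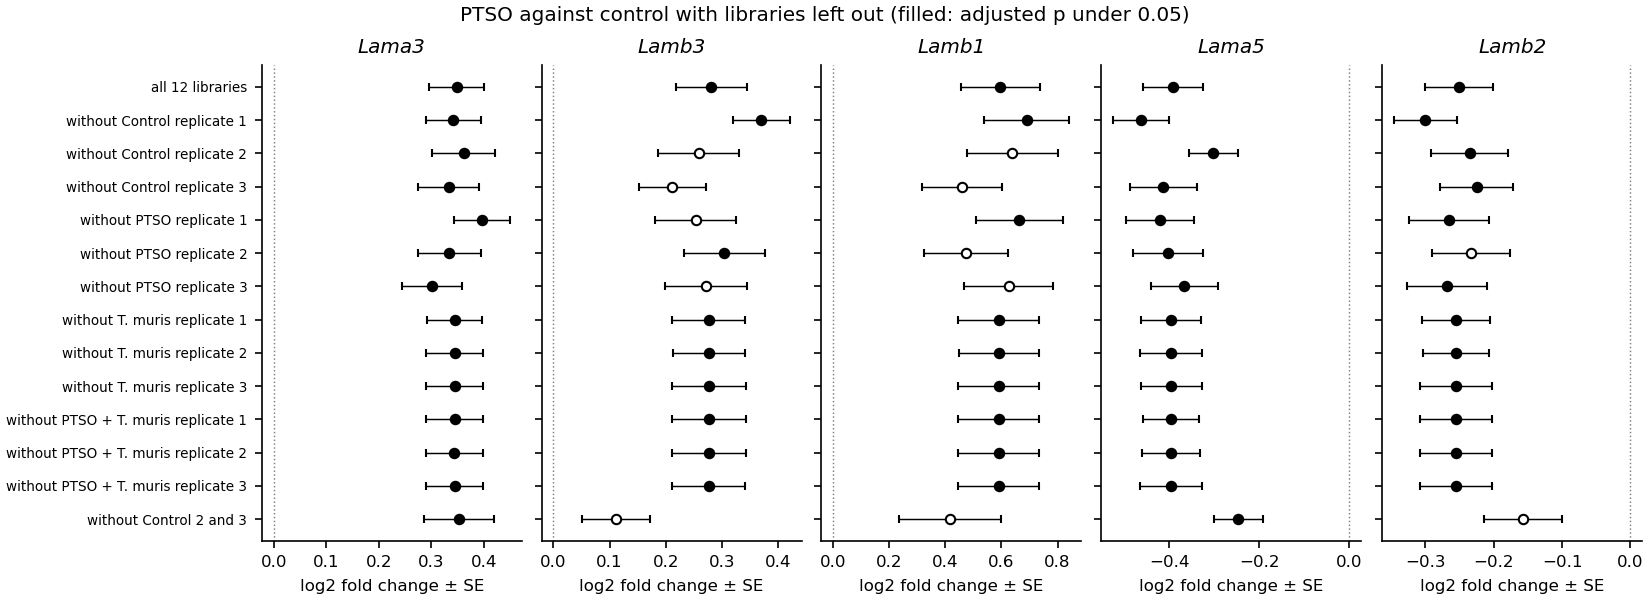
The log2 fold change ± SE of the 5 genes called in PTSO against control, refitted with each library left out and with control libraries 2 and 3 left out together; filled points have an adjusted p under 0.05. Lama3 stays between 0.30 and 0.40, while Lamb3, Lamb1 and Lamb2 lose their calls without control libraries 2 and 3.

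The sequences upstream of the transcription start are shown for 3 of the genes that moved, because Lamb3 and Lamb1 rose with PTSO while Lama5 fell. RefSeq promoter windows of build GRCm38.p6 were matched for 4 of the 8 genes. Capitals mark matches to any of 6 motifs searched on both strands of the 250 bases before the start, and each run is the part outside annotated exons, at most 200 bases long. The Lamb3 run is chr1:193301793-193301992 on the plus strand, the Lamb1 run is chr12:31265043-31265233 on the plus strand, and the Lama5 run is chr2:180225860-180226059 on the minus strand.
Lamb3: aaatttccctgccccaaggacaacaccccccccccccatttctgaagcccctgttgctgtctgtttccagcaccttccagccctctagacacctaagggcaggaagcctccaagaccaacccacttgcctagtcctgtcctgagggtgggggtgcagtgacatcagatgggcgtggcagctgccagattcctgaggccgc
Lamb1: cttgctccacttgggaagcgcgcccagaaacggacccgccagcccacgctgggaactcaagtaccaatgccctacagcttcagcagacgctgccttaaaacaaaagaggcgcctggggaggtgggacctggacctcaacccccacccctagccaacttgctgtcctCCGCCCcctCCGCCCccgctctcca
Lama5: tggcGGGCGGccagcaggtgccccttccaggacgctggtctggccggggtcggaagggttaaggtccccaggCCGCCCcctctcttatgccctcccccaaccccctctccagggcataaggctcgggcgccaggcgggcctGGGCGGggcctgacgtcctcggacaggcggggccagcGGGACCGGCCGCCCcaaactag

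The windows differ in base composition. The 250 bases before the Lama5 start were 72.4% G or C and held 19 CpG dinucleotides, against 58.8% and 2 at the first Lamb3 start and 62% and 14 at Lamb1. The motifs were the GC box GGGCGG, present in 32.7% of 32851 windows of this length, the AP-1 site TGACTCA or TGAGTCA (4.46%), the E-box CACGTG (6.02%), the NRF2 element core TGACNNNGC (10.2%), the NF-kB site, written as GGGA, any 4 bases and CC (17.6%), and the CRE TGACGTCA (1.55%). Lama5 had 4 GC boxes and 1 NF-kB match that overlaps the last of them, Lamb1 had 2 GC boxes and 1 NF-kB match that lies past the bases shown, and Lamb3 had no match at this start. Lamb2, the other matched gene, had no GC box. Its 250 bases were 43.6% G or C with 3 CpG dinucleotides and 1 NF-kB match. The second Lamb3 start had 61.2% G or C, 3 CpG dinucleotides and 1 NF-kB match. A match is a description of letters and was not tested as a binding site, nor was any link to the direction of change tested.

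The second PTSO contrast, PTSO + T. muris against T. muris, holds the antigens fixed, and no control library enters it. Lama3 rose again and was the only one of the 8 called, where 0.616% of all genes were called, 0.229% higher and 0.386% lower. It was at 132, 141 and 144 CPM with antigens alone and at 178, 178 and 174 CPM with both treatments, with no overlap. It rose by 0.35 ± 0.05 on the log2 scale with adjusted p = 0.00146, and the call held whichever library was left out (adjusted p up to 0.0258). The value without antigens was also 0.35, and the 2 comparisons share no library, although the fit estimates their spread together.

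The other values in this comparison were smaller. Lamb3 was at 152 to 164 CPM with antigens and 174 to 180 CPM with both, with no overlap, a log2 value of 0.15 ± 0.06 and adjusted p = 0.446. With control libraries 2 and 3 left out of the shared spread, the value was 0.15 ± 0.04 with adjusted p = 0.0399, and in a fit of the 6 compared libraries alone adjusted p was 0.0346; over the 19 alternatives it ran up to 0.794. Lamb1 was at 0.29 ± 0.14, Itgb4 at 0.13 ± 0.06, Lama5 at -0.11 ± 0.07, Lamc1 at -0.05 ± 0.08, Lamb2 at -0.03 ± 0.05 and Itga6 at -0.02 ± 0.08, none of them called. Groups did not overlap in 4 of the 8 genes, against 18.7% of all genes.

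The average of the PTSO effect over both backgrounds sets 6 libraries against 6. Lama3 was at 0.35 ± 0.04 with adjusted p = 1.05e-05, Lamb3 at 0.22 ± 0.04 (adjusted p = 0.00516), Lamb1 at 0.44 ± 0.10 (0.0102), Lama5 at -0.25 ± 0.05 (0.00469) and Lamb2 at -0.14 ± 0.04 (0.0219), all in edgeR's test. The calls of Lama3, Lamb3, Lamb1 and Lama5 held whichever library was left out, and that of Lamb2 was lost without each of 6 libraries in turn (adjusted p up to 0.0722). Those libraries were control library 2, PTSO library 2, T. muris libraries 1 and 3, and libraries 1 and 2 of PTSO + T. muris. With control library 1 as the only control, Lama3 (0.35 ± 0.04), Lamb3 (0.13 ± 0.04, adjusted p = 0.0356) and Lama5 (-0.18 ± 0.03, adjusted p = 0.00158) were called, and Lamb1 (adjusted p = 0.078) and Lamb2 (0.202) were not. In this comparison 3 of 8 genes were called higher and 2 lower, where 6.51% of all genes were called, 2.8% higher and 3.71% lower. The 6 libraries with PTSO did not overlap the 6 without it for Lama3 and Lamb1, 2 of 8 genes against 2.62% of all genes.

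**Figure D4:**
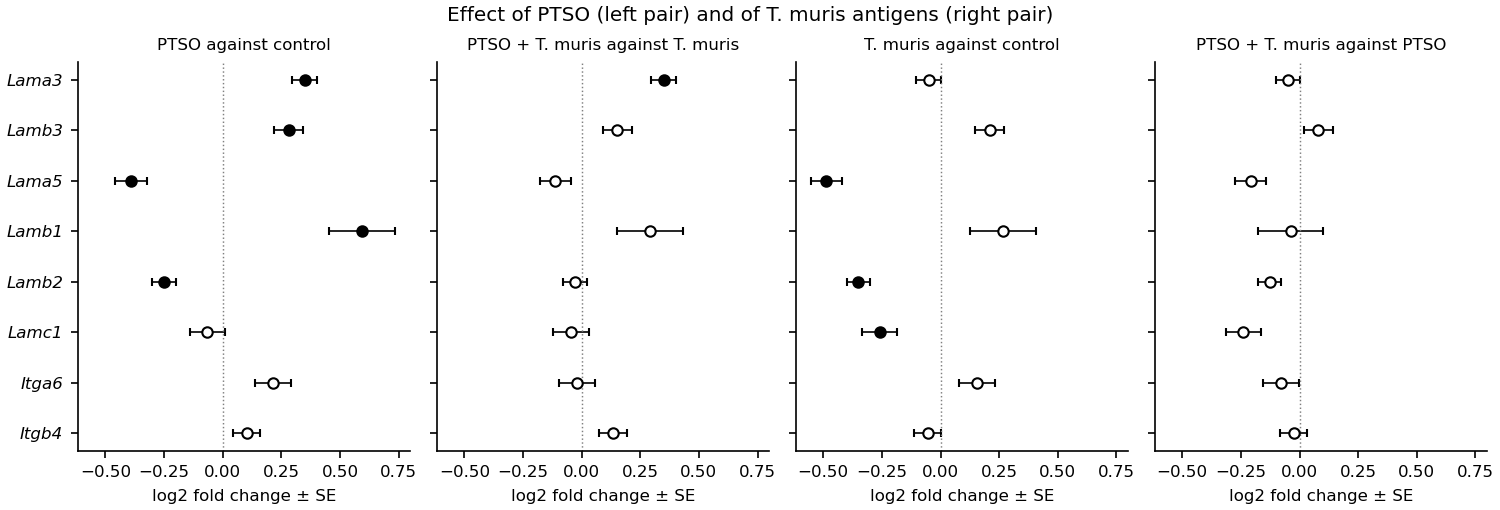
The log2 fold change ± SE of the 8 genes for PTSO without and with antigens (left pair of panels) and for antigens without and with PTSO (right pair); filled points have an adjusted p under 0.05. The Lama3 points for PTSO sit at 0.35 in both backgrounds, and the Lama5 points lie below 0 in all panels.

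T. muris against control gives the antigens without the compound, and it shares its control libraries with PTSO against control. The genes of laminin-521 fell: Lama5, Lamb2 and Lamc1 were called lower, and none of the 8 was called higher. That is 3 of 8, where 3.43% of all genes were called lower and 6.35% in either direction. That is 969 genes, which became 4044 without control library 1, 5 without control library 2 and 2 without T. muris library 1. The median over the 8 genes was -0.05, against 0.0012 over all genes.

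Lama5 was at 1156, 1228 and 1233 CPM with antigens, below all control libraries. Its log2 fold change was -0.49 ± 0.07 with adjusted p = 0.0104, and -0.55 ± 0.06 with adjusted p = 2.95e-05 without control library 1. It stayed called without control libraries 2 and 3, at -0.34 ± 0.05 with adjusted p = 0.00598, and lost the call without T. muris library 1 (adjusted p = 0.0623) and in 1 other of the 19 alternatives, over which adjusted p ran from 2.89e-21 to 0.104. Lamb2 was at 209, 188 and 200 CPM with antigens, also below all control libraries, at -0.35 ± 0.05 with adjusted p = 0.0104. Leaving out control library 1 gave -0.40 ± 0.05 with adjusted p = 1.11e-07. Its call held whichever single library was left out (adjusted p up to 0.0441), but without control libraries 2 and 3 the value was -0.25 ± 0.06 with adjusted p = 0.122 (3.67e-08 to 0.122 over the alternatives).

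Lamc1 was at 47.7, 52.2 and 57.0 CPM with antigens, with T. muris library 3 just below the lowest control library. Its log2 value was -0.26 ± 0.07 with adjusted p = 0.0431, and -0.31 ± 0.07 with adjusted p = 0.00131 without control library 1. This call held without control library 1 or PTSO library 3 and was lost without each of the other 10 libraries (adjusted p up to 0.241). The value was -0.15 ± 0.09 with adjusted p = 0.998 without control libraries 2 and 3 (0.00131 to 0.998 over the alternatives).

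Lama3 had a value near 0 with antigens alone, -0.05 ± 0.05, and was not called. Lamb3 was at 0.21 ± 0.06 with adjusted p = 0.0503, and at 0.30 ± 0.05 with adjusted p = 3.04e-05 without control library 1. It was called in 5 of 19 alternatives (adjusted p 3.04e-05 to 0.998), and its value was 0.04 ± 0.06 without control libraries 2 and 3. Lamb1 was at 0.27 ± 0.14, Itga6 at 0.16 ± 0.08 and Itgb4 at -0.06 ± 0.06, none called. Groups did not overlap in 4 of the 8 genes, against 22.9% of all genes.

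PTSO + T. muris against PTSO gives the antigens in cells that had the compound. None of the 8 genes and none of the 15267 genes was called by edgeR, while 932 genes, 3 of the 8 among them, had an unadjusted p under 0.05, and DESeq2 called 15 genes and none of the 8. The 3 were Lamc1 at -0.24 ± 0.07, Lama5 at -0.21 ± 0.07 and Lamb2 at -0.13 ± 0.05, with adjusted p from 0.695 to 0.779. In each of these the libraries with both treatments lay below all PTSO libraries, and those of Lamb3 lay above them. That is 4 of 8 genes with no overlap, against 15.4% of all genes. With control libraries 2 and 3 left out, Lama5 was called in this comparison, at -0.20 ± 0.04 with adjusted p = 0.0128; over the 19 alternatives adjusted p ran from 0.0106 to 0.992. The average of the antigen effect over both backgrounds was -0.35 ± 0.05 for Lama5 (adjusted p = 0.00227), -0.24 ± 0.04 for Lamb2 (0.00185) and -0.25 ± 0.05 for Lamc1 (0.0175), 3 of 8 called lower where 5.19% of all genes were called, 2.12% higher and 3.07% lower. Lama5 was the 1 gene of the 8 whose 6 libraries with antigens did not overlap the 6 without, against 1.68% of all genes. The calls of Lama5 and Lamb2 held whichever library was left out and without control libraries 2 and 3 together. Lamc1 lost the call without control library 2, T. muris library 1 or library 1 of PTSO + T. muris (adjusted p up to 0.0736). It was also lost without control libraries 2 and 3 together, at -0.19 ± 0.06 with adjusted p = 0.134, the highest over its 18 alternatives, which began at 6.96e-05.

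PTSO + T. muris against control compares both treatments with neither, and 3 of the 8 genes were called higher and 3 lower. Of all genes, 16.7% were called, 7.88% higher and 8.85% lower. Groups did not overlap in 7 of the 8, against 29.4% of all genes. Lama5 was at 1045, 1181 and 1121 CPM, its lowest mean among the 4 groups, a log2 fold change of -0.60 ± 0.07 with adjusted p = 8.42e-05. Lamb2 was at 195, 197 and 194 CPM (-0.38 ± 0.05, adjusted p = 1.28e-04) and Lamc1 at 51.6, 50.8 and 49.2 CPM (-0.30 ± 0.07, adjusted p = 0.00956). Lama3 rose by 0.30 ± 0.05, Lamb3 by 0.36 ± 0.06 and Lamb1 by 0.56 ± 0.14 on the log2 scale. Their adjusted p were 0.00115, 0.00104 and 0.0117. Without control library 1 these rises were 0.30, 0.45 and 0.66. Lama5, Lamb2 and Lamc1 were then at -0.67, -0.42 and -0.36. With control library 1 as the only control, Lama5 (-0.45 ± 0.05, adjusted p = 1.12e-05), Lamb2 (-0.28 ± 0.06) and Lama3 (0.31 ± 0.07) stayed called, and Lamb3 (0.20 ± 0.06), Lamb1 (0.38 ± 0.18) and Lamc1 (-0.19 ± 0.09) did not. Lamb1 was also lost without control library 3 or library 2 of PTSO + T. muris (adjusted p up to 0.0773), and Lamc1 without control library 2 (0.0757). Itga6 (0.14 ± 0.08) and Itgb4 (0.08 ± 0.06) were not called.

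Whether the PTSO effect differed between backgrounds was tested as an interaction, the effect with antigens minus that without them. None of the 8 genes and no gene in the table was called by edgeR, while 1181 genes had an unadjusted p under 0.05 and DESeq2 called 4 genes, none of the 8. Without control library 1, edgeR called 1279 genes. The difference was 0.0014 ± 0.074 for Lama3. It was 0.28 ± 0.09 for Lama5, 0.22 ± 0.07 for Lamb2 and -0.23 ± 0.11 for Itga6, each with adjusted p = 0.644 and an unadjusted p under 0.05. Without control library 1, Lama5 (0.35 ± 0.08, adjusted p = 0.0254), Lamb2 (0.27 ± 0.06, adjusted p = 0.00502) and Lamb3 (-0.22 ± 0.07, adjusted p = 0.0389) were called. Over all alternatives the adjusted p of each of these 3 ran up to 1.0.

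Ratios of chains within a library do not depend on how libraries are scaled, and they are given as descriptions without a test. The ratio of Lama3 to Lama5 per kb was 0.0907 ± 0.00862 in control, 0.151 ± 0.0156 with PTSO, 0.122 ± 0.0013 with antigens and 0.168 ± 0.011 with both (SD, n = 3 each). All treated libraries were above all control libraries, and the 6 libraries with PTSO were above the 6 without it. The ratio of Lamb3 to Lamb2 was 0.502 ± 0.0864 in control, 0.722 ± 0.0121 with PTSO, 0.736 ± 0.0109 with antigens and 0.833 ± 0.0134 with both. Control library 1 was the highest control in both ratios, at 0.0992 and 0.599.

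Within laminin-332, the ratio of Lama3 to Lamb3 was 0.646 ± 0.0686 in control, 0.673 ± 0.0604 with PTSO, 0.536 ± 0.0384 with antigens and 0.614 ± 0.00443 with both. The libraries with antigens alone were below all libraries with PTSO and overlapped the control libraries at 1 end. Itga6 to Itgb4 ranged from 0.333 to 0.435 over the 12 libraries, with each group overlapping the others.

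**Figure D5:**
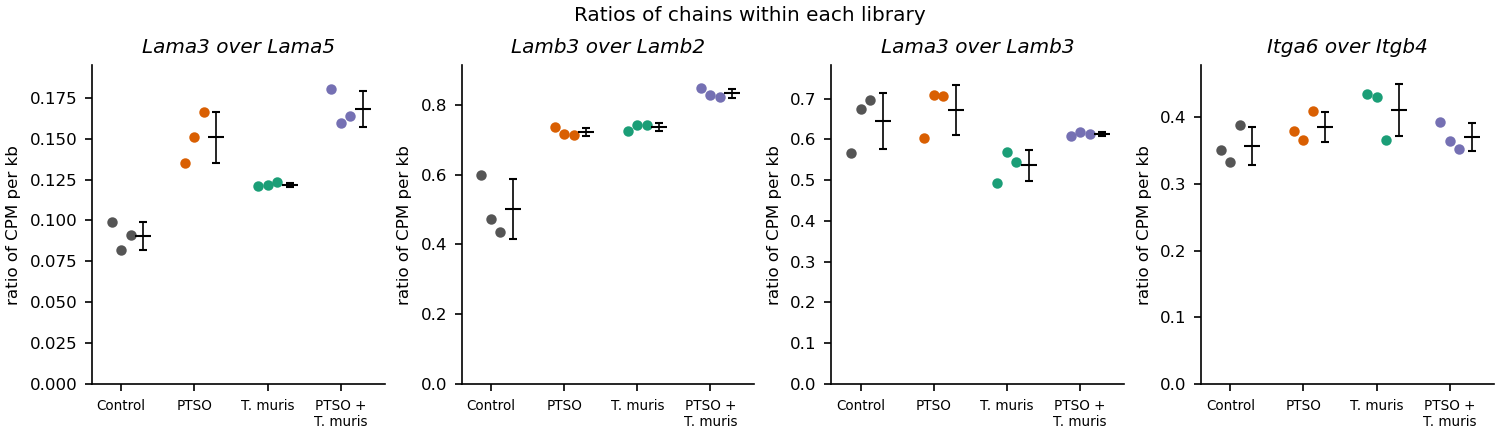
Ratios of exon-length-scaled levels within each library, with points for libraries and bars for the mean ± SD of 3 libraries. Lama3 over Lama5 and Lamb3 over Lamb2 are above control in all treated libraries, while Itga6 over Itgb4 overlaps between groups.

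Other genes of the basement membrane and of matrix adhesion were examined as 7 lists with 76 genes, of which 60 passed the filter. In PTSO against control 7 were called higher and 4 lower, in T. muris against control 3 and 5, in PTSO + T. muris against T. muris 0 and 1, and in PTSO + T. muris against control 11 and 16. The calls of 2, 0, 0 and 8 of these genes held whichever library was left out. Without control libraries 2 and 3 the called counts were 3, 0, 1 and 1. As shares of the genes tested they stand beside the 5.25%, 6.35%, 0.616% and 16.7% called over all genes.

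Among the hemidesmosome partners, 0 of 7 tested genes were called with PTSO or with antigens alone. Plec, the plectin that links the integrin to keratin, was at 497 ± 62.2 CPM in control and 578 ± 17.2 CPM with PTSO (0.22 ± 0.08, adjusted p = 0.101). Dst, the other plakin of the hemidesmosome, was at 287 ± 29 CPM in control and 246 ± 11.8 CPM with antigens (-0.22 ± 0.07, adjusted p = 0.0576). Col17a1, the collagen of the hemidesmosome, was low, at 2.56 to 3.8 CPM in group means, and Cd151, the tetraspanin that holds laminin-binding integrins, was at 192 to 217 CPM in group means, neither called. With both treatments against control, Dst fell (-0.21 ± 0.07, adjusted p = 0.0469) and Lad1, an anchoring filament gene, rose (0.22 ± 0.05). Neither of these calls held whichever library was left out.

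Of 9 tested integrin genes outside the 8, Itgav (0.28 ± 0.05), Itgb6 (0.35 ± 0.09) and Itgb1 (0.16 ± 0.04) rose in PTSO against control, and Itga5, the fibronectin receptor subunit, fell in T. muris against control (-0.22 ± 0.06). Itgav and Itgb6 encode the pair that activates latent TGF-beta. The call of Itgav held whichever library was left out, and those of Itgb6, Itgb1 and Itga5 did not. For the average PTSO effect over both backgrounds, the calls of Itgav (0.16 ± 0.04) and Itgb6 (0.33 ± 0.06) both held. Itga3, the other laminin-332 receptor subunit, was at 1028 ± 154 CPM in control and 1104 ± 16.3 CPM with PTSO, at 0.10 ± 0.08, and was not called in any of the 8 comparisons. Of 5 other laminin receptors and coreceptors, 0 were called with PTSO against control. Dag1, the dystroglycan gene (-0.29 ± 0.05), and Sdc2 (-0.37 ± 0.08) fell with both treatments against control. Bcam, which binds the alpha 5 chain, also fell there (-0.51 ± 0.15). The calls of Dag1 and Sdc2 held whichever library was left out, and that of Bcam did not.

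Among 11 tested basement membrane partners, Col18a1, the collagen of the epithelial basement membrane, rose (0.20 ± 0.05) and Tinagl1, a secreted matricellular gene, fell (-0.22 ± 0.05) in PTSO against control. Tinagl1 also fell in PTSO + T. muris against T. muris, at -0.26 ± 0.05 with adjusted p = 0.0337. Agrn, the proteoglycan agrin, fell with antigens (-0.22 ± 0.05) and Sparc, a collagen-binding glycoprotein, rose (0.40 ± 0.09). Ntn4, the netrin that binds laminin gamma chains, and Hspg2, the perlecan gene, fell with both treatments against control. Ntn4 was at -0.52 ± 0.09 (adjusted p = 0.00236) and Hspg2 at -0.44 ± 0.13 (adjusted p = 0.0486). Of these basement membrane calls, only that of Ntn4 held whichever library was left out, but other calls of the same genes also held. With both treatments against control, these were the calls of Agrn (-0.24 ± 0.05) and Col18a1 (0.23 ± 0.05). For the average PTSO effect over both backgrounds, it was that of Tinagl1 (-0.24 ± 0.04).

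Of 10 tested matrix protease and inhibitor genes, Furin, a proprotein convertase (0.21 ± 0.05), and Timp1 (0.31 ± 0.07) rose in PTSO against control. Timp2, like Timp1 a metalloprotease inhibitor (-0.22 ± 0.05), and Mmp7, matrilysin (-1.07 ± 0.27), fell there. Mmp7 had adjusted p = 0.0499, and its value ran from -1.32 to -0.41 over the alternatives. With antigens alone Timp1 (0.39 ± 0.08) and Plau, the urokinase gene (0.56 ± 0.14), rose, and Mmp14, a membrane protease that cuts laminin-332 (-0.26 ± 0.06), fell. Of 16 focal adhesion and linker genes, Parva fell with PTSO (-0.20 ± 0.05) and Vcl, vinculin, with antigens (-0.20 ± 0.05). With both treatments against control Lims1, Tns3, Parva and Vcl fell by 0.17 to 0.23. None of these calls for proteases, inhibitors or linker genes held whichever library was left out, but other calls of the same genes did. With both treatments against control, the calls of Furin (0.25 ± 0.05), Timp1 (0.38 ± 0.08) and Timp2 (-0.26 ± 0.05) held. For the average PTSO effect over both backgrounds, those of Furin (0.19 ± 0.03), Timp2 (-0.17 ± 0.03) and Parva (-0.19 ± 0.03) held.

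For each of the 8 genes, the genes most like it were found by Pearson's correlation of log2 CPM over the 12 libraries among 9923 well expressed genes. The libraries share 4 treatments and the gap between control libraries, so these are descriptions. Lamb3 was most like Ier5 (r = 0.978) and Fos (0.974), both immediate early genes. Lama3 was most like Aff4 (0.951) and Itgb6 (0.946). Lama5 was most like Celsr2 (0.987) and Ltbp3 (0.957), Lamb2 like Abca3 (0.965), Lamc1 like Ralgapa1 (0.955) and Nfat5 (0.948), and Lamb1 like Msh6 (0.959). The integrin genes had weaker matches, Pusl1 for Itga6 (0.909) and Zfp282 for Itgb4 (0.917).

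Base composition, transcript length and overlapping annotation touch some of these values. Lama5, Lamb2, Lamb3 and Itgb4 lie in the highest of 5 bins of transcript GC content, whose median log2 fold change was -0.02 in PTSO against control and -0.04 in T. muris against control. Lama3, Lama5, Lamb1, Lamb2, Lamc1 and Itgb4 lie in the highest of 5 bins of transcript length, whose median was 0.0052 in PTSO against control, -0.04 in T. muris against control and -0.05 in PTSO + T. muris against PTSO. The part of GC content and of length in the results was not tested. Genes on the opposite strand cover 7.66% of the exon bases of Itgb4 and 1.83% of those of Lama3, and without a stated strand setting their reads cannot be told apart there.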

How the data were processed

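Gene-level read counts of 12 libraries were used as deposited by the authors, as whole-number raw counts with 1 column per library. HISAT, DESeq2 and build mm39 appear in the submitters' processing notes, without versions or roles. No source used here gives the counting program, annotation release or strand setting. The low-count filter was edgeR's filterByExpr (version 4.0.16), and the 15267 genes kept held 99.9% of the counts. Libraries were scaled by TMM, a negative binomial model with 4 group coefficients took all 12 libraries, leaving 8 residual degrees of freedom, and contrasts were tested with edgeR's robust quasi-likelihood F-test, with Benjamini-Hochberg adjustment over all genes tested. SEs were derived from F, as the absolute log2 value over its square root. CPM are TMM-scaled. Lengths, GC content and opposite-strand overlap come from GENCODE annotation of GRCm38, an earlier build than the files'. Coordinates are given only for the upstream runs and refer to GRCm38.p6, not to the files' build. The named genes are the 8, a fixed set of partners (Itga3, Itgb1, Col17a1, Plec, Dst, Cd151), and up to 6 called genes by smallest p per list and comparison. Results of some other genes under this rule are not reported here. The genes, lists, tests and alternatives were chosen with earlier results of these data known. Alternatives were DESeq2 1.42.0, its size factors, 2 other filters, the compared libraries alone, the replicate number as a block, and libraries left out. The fit was tested on simulated counts. Work ran in R 4.3.3 and Python 3.11.15.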

Additional observations from a re-analysis of the deposited data

How the results depend on the processing

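No called value of the 8 genes changed sign under any alternative; 19 values that were not called did, of 1200. The number of the 8 genes called was 5 in PTSO against control, 3 in T. muris against control, 1 in PTSO + T. muris against T. muris, 0 in PTSO + T. muris against PTSO, 6 in PTSO + T. muris against control, 0 in the interaction, and 5 and 3 for the PTSO and T. muris averages. These counts were within 1.5 times under DESeq2, its size factors and the stricter filter. Without a filter, 1 gene, Lama5, was called in PTSO + T. muris against PTSO and 1, also Lama5, in the interaction. When each fit held the compared libraries alone, the counts were 1, 0, 2 and 1 in the first 4 comparisons in that order, where fewer libraries set the spread. Without control libraries 2 and 3 they were 2, 1, 2, 1 and 3 in the first 5, and 3 for the PTSO average. Leaving out each library in turn gave 3 to 6 in PTSO against control, 1 to 4 in T. muris against control and 0 to 3 in the interaction, the highest without control library 1. With the replicate number as a block the counts were 5, 4, 1, 0, 6, 0, 5 and 4. Whether the numbers pair the libraries is not settled by these data. Deviations correlated above 0.1 in 0 of 18 same-numbered pairs (range -0.0584 to 0.0976), but also in 0 of 36 other pairs. Of 12 libraries, 8 correlated best with their own number. The number of all genes called, and so the share printed beside the 8, moved by over 1.5 times with single libraries. With 1 library left out it ran from 165 to 3637 in PTSO against control (802 with all), 2 to 4044 in T. muris against control (969), 23 to 371 in PTSO + T. muris against T. muris (94), 0 to 36 in PTSO + T. muris against PTSO (0), 990 to 4799 in PTSO + T. muris against control (2554), 0 to 1279 in the interaction (0), and 501 to 3169 and 55 to 3718 for the PTSO and T. muris averages (994 and 792). The highest count in each was without control library 1. With only the compared libraries it was 46, 1, 479, 34 and 864 in the first 5 comparisons, without control libraries 2 and 3 it was 77, 8, 425, 80 and 204, by DESeq2 1544, 1960, 195, 15 and 3051, and without a filter 1728, 2063, 249, 42 and 2963. Lamb1, with 149 to 405 counts per library, has the widest errors of the 8.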
